A study of Rattus norvegicus with 27 samples.

Results

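The moderately CpG-rich unmethylated bins of the rat renal outer medulla were 8326 of the 189815 autosomal 500 bp windows that held a CpG measured in every library of the second data table, and 8326 of the 28573 windows with at least 10 such CpGs. Each held 10 to 19 CpGs with at least 10 reads in all 12 libraries of that table, had a mean methylation level under 10%, and lay outside any stretch of 4 or more consecutive CpG-rich windows of such low level. The windows inside those stretches (broad domains, 1573 bins) and the windows with 20 or more CpGs outside them (dense bins, 10920) are the sets used for comparison. Low methylation in the second table therefore chose the members and is given below as a description, with no test. The first table, from 15 other rats, played no part in the choice, and 5764 members had at least 3 CpGs there with 10 or more reads in all 15 libraries.

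The tissue came from Dahl salt-sensitive (SS) rats, an inbred rat model in which dietary salt raises blood pressure, and every library was 1 rat whose DNA was read by RRBS (reduced representation bisulfite sequencing). Here the enzyme MspI cuts at CCGG, short fragments are sequenced after bisulfite treatment, and a C or a T read at a CpG counts as methylated or unmethylated. In the first table, MCW_LS (SS rats labelled MCW; n = 3) received the purified AIN-76A diet with 0.4% NaCl until 8 weeks of age, and CRL_LS (SS rats labelled CRL; n = 4) the non-purified 5L2F diet with 0.75% NaCl until 8 weeks. MCW_HS (n = 4) and CRL_HS (n = 4) received 4% NaCl in the AIN-76A diet from the age of 6 weeks, for 14 days, so that in the CRL rats the type of diet changed together with its salt and the 2 cannot be told apart. For the same reason colony and diet cannot be told apart between MCW_LS and CRL_LS, nor in the difference of the salt effects of the colonies. In the second table all rats were labelled MCW SS and had the same surgery. PRE_LS (n = 4) stayed on 0.4% NaCl and was sampled before any GapmeR or high salt. HS_SCR (n = 4) received a scrambled GapmeR into the kidney at 4 mg/kg and 4% NaCl for 7 days. HS_DT (n = 4) received GapmeRs, antisense oligonucleotides that direct cleavage of a target RNA, against Dnmt3a and Tet3 at 2 mg/kg each, with 4% NaCl for 7 in a unit the labels leave out. Dnmt3a adds methyl groups to unmethylated DNA, and Tet3 starts their removal by oxidation. Against PRE_LS, both HS_SCR and HS_DT differ in salt, GapmeR and time of sampling at once, and these cannot be told apart. All PRE_LS animal numbers fall in a single range and most HS_DT numbers in another, so number range is partly tied to group as well. The outer medulla mixes thick ascending limb, collecting duct, vessel and other cells, and the level of a bin is an average over all of them, so that a change within a cell type cannot be told apart from a change in the mixture.

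CpG islands are short stretches in which CpGs have been kept at high density, and in vertebrates most of them carry little DNA methylation and many hold the start of a gene. Islands at genes used in every cell are commonly bound by ubiquitous activators, whereas those at developmental regulators are commonly covered by Polycomb proteins in tissues that do not use the gene. Away from islands most CpGs are methylated, and the transition between the low and the high state forms an island's shore.

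No annotation of rn5, the build of the tables, was used here. Gene starts were placed instead by matching the spacing of CpGs in RefSeq promoter sequences of build GRCr8 (250 bases before and 50 after each start) to the spacing of the CpG positions listed in the second table. Of 33469 promoters, 5540 had a single best place with at least 12 matching CpGs and no listed position left over, and 5495 of these (99.2%) lay on the chromosome of the same name. The 45 others were left out. The method can place only promoters with many CpGs, so an unplaced gene says nothing about where its start lies.

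The following 6 promoters are printed because they go from starts with almost no methylated read to a start, that of Nkx2-5, at 6.55%. They are RefSeq sequences of build GRCr8, 5′ to 3′ on the strand of the gene, in lower case with every CpG in capitals, and they were chosen after the levels had been seen. Edn1 encodes the precursor of the vasoconstrictor endothelin-1, Nox4 a hydrogen peroxide producing NADPH oxidase, Rpl13a a ribosomal protein, Nkx2-5 a cardiac transcription factor, Sim1 a neuronal transcription factor and Rhcg an ammonia transporter of the collecting duct. Their GRCr8 positions are Edn1 chr17:22666638-22666937 (minus strand), Nox4 chr1:150313639-150313938 (plus strand), Rpl13a chr1:104748864-104749163 (minus strand), Nkx2-5 chr10:16848350-16848649 (plus strand), Sim1 chr20:55410327-55410626 (plus strand) and Rhcg chr1:142965113-142965412 (minus strand). The rn5 bins that hold their starts are chr17:24124001-24124500 for Edn1, chr1:157106501-157107000 for Nox4, chr1:102188501-102189000 for Rpl13a, chr10:16524501-16525000 for Nkx2-5, chr20:57195001-57195500 for Sim1 and chr1:142310501-142311000 for Rhcg.
Edn1: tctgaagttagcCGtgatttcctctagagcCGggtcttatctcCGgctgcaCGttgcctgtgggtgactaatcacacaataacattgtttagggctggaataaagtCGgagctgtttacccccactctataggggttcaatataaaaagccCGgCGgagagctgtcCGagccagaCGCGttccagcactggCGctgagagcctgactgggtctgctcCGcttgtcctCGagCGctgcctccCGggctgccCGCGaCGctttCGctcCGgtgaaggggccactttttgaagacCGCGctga
Nox4: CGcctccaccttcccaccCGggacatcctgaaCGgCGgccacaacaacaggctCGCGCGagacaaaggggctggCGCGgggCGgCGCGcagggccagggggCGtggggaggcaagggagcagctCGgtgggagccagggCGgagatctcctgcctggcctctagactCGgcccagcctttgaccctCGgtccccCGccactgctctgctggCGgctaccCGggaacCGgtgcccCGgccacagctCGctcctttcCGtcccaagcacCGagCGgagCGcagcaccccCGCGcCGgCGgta
Rpl13a: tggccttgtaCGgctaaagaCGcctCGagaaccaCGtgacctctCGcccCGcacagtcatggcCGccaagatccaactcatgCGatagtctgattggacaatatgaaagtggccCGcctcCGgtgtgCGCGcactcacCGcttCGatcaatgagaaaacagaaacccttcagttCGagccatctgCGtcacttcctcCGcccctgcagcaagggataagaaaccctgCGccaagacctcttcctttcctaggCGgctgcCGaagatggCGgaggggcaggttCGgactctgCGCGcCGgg
Nkx2-5: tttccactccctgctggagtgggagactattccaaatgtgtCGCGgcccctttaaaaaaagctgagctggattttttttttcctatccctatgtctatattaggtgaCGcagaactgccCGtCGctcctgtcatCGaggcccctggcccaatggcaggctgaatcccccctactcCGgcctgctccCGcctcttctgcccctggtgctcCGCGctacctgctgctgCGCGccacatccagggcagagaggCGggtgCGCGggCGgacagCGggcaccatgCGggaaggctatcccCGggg
Sim1: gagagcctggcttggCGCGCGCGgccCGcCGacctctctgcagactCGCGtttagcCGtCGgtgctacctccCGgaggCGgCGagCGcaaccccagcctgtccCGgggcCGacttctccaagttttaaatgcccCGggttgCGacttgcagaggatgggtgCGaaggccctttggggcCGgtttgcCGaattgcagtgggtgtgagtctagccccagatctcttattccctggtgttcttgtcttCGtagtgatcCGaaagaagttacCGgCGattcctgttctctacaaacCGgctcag
Rhcg: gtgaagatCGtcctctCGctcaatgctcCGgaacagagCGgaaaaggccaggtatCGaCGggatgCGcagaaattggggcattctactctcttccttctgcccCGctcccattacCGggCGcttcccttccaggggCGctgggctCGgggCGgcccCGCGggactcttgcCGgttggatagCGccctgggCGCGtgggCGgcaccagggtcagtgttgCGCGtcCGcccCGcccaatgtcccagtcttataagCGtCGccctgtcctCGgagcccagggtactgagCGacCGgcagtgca

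The 2 starts of lowest level among these 6 were those of Rpl13a and Edn1. All 16 measured CpGs of the Rpl13a promoter had a mean level under 1% over the 12 rats of the second table, and the highest was 0.460% at position -52 from the start. The 12 measured CpGs of the Edn1 promoter, out of 22, were also under 1%, with the highest, 0.816%, at position -32. They ran from -198 to -8, so none lay after the start. In the Nkx2-5 promoter the methylation sat in a short cluster: the CpGs at positions -41, -39 and -64 had mean levels of 18.6%, 16.3% and 11.2%. The site at -41 was methylated in every one of the 12 rats, between 13.2 and 27.4%.

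The Nox4 promoter lay between these patterns. Its CpG 5 bp after the start had a mean level of 8.32% (3.28 to 13.8% over the 12 rats), and 5 of its 24 measured CpGs were under 1%. In the Sim1 promoter the highest site, at position -165, averaged 12.6% and ranged from 0 to 36.4%, and it lay in the window next to the member bin. In the Rhcg promoter the highest site was at position -211, 13.7% (6.32 to 22.3%), also outside the bin of the start, while 13 of its 27 measured CpGs were under 1%. Within a single promoter, then, neighbouring measured CpGs differed by more than 10 percentage points in Nkx2-5, Sim1 and Rhcg and by less than 1 point in Edn1 and Rpl13a.

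**Figure D1:**
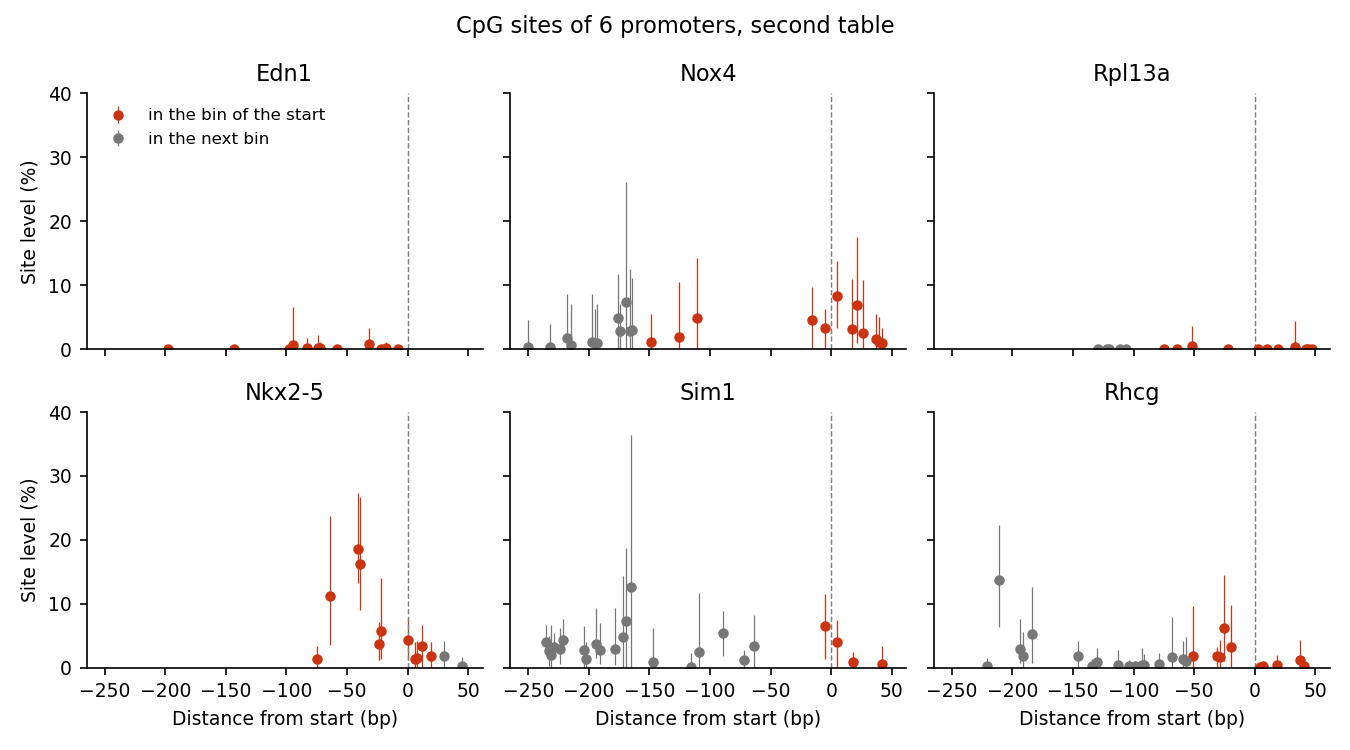
Methylation level of each measured CpG (y axis, %) against its distance from the gene start (x axis, bp) for the 6 printed promoters. Points are means over the 12 rats of the second table, and lines run from the lowest to the highest rat. Sites of Edn1 and Rpl13a lie at the bottom of the axis, and the Nkx2-5 cluster reaches 18.6%.

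Most members were far below the 10% limit. Their levels averaged 1.04% with a median of 0.157%, and the 5th and 95th percentiles were 0.0275 and 5.56%. A level under 0.1% was found in 41.0% of members, 0.1 to 1% in 32.6%, 1 to 5% in 20.6% and 5 to 10% in 5.78%. The mean was thus carried by a minority of bins. In 43 members no methylated read was seen in any of the 12 libraries. These had 2709 to 18088 reads in all, which allows levels of up to 0.111 to 0.0166% by the rule of 3 counts, counting error only. Among them the bins with most reads were chr1:254350001-254350500 (14 CpGs, 18088 reads), chr10:72095001-72095500 (10 CpGs, 17425 reads) and chr10:46241001-46241500 (19 CpGs, 13710 reads).

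At the other end, the 3 members nearest the limit had levels of 9.9997, 9.97 and 9.96%, and the 3 bins just beyond it 10.006, 10.02 and 10.02%. The limit cuts a continuous range there: each of these 6 bins had rats on both sides of 10%. The members with the largest spread over the 12 rats were chr20:4021501-4022000 (7.80% ± 5.40, SD, n = 12), chr1:233633001-233633500 (6.02% ± 5.09) and chr20:39332001-39332500 (7.78% ± 4.92). The second ranged from 0 to 18.8% and the third from 0 to 17.9%. All 3 had no CpG that passed the read minimum in the first table. For the typical member the spread was small, with a median SD over the 12 rats of 0.168 points and a 95th percentile of 1.54 points.

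The members held 116735 common CpGs. Of these, 79.8% had a mean level under 1%, 18.3% were at 1 to 10%, 1.87% at 10 to 50% and only 39 at 50% or more. Those 39 CpGs lay in 25 members. The highest was chr7:103506050, at 94.0% (at least 80.8% in each of the 12 rats), with the nearest measured CpG 3 bp away. The 9 other sites of its bin had a median of 9.02%, and the highest of them was at 92.9%. The member next in order of its highest CpG held chr7:1611315 at 88.7%, and its 14 other sites had a median of 7.36% and a highest level of 87.6%. The site chr10:104741218, at 81.9%, was the first of its bin, 69 bp from the next. The 12 other sites there had a median of 0.0356%, but the highest of them was at 75.1%. The coverage of chr10:104741218 was low, 10 to 30 reads in a library. In 55.3% of members every CpG was under 1%.

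Members with fewer CpGs had somewhat higher levels. The median was 0.224% in the 1103 members with 10 CpGs and 0.117% in the 658 with 19, with the lowest, 0.113%, at 18. The means went up and down between 1.27% at 11 CpGs and 0.860% at 17, with 1.01% at 16 and 0.926% at 19. The ranges between quartiles of neighbouring classes overlapped almost fully, and the order of the medians was not strict, with 0.156% at 13 CpGs and 0.169% at 14. Standing alone also went with a higher level: 3561 members had no CpG-rich low neighbour and a mean of 1.36%, 3567 stood in pairs with 0.762%, and 1198 stood in groups of 3 with 0.959%. These levels all come from the table that chose the members.

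**Figure D2:**
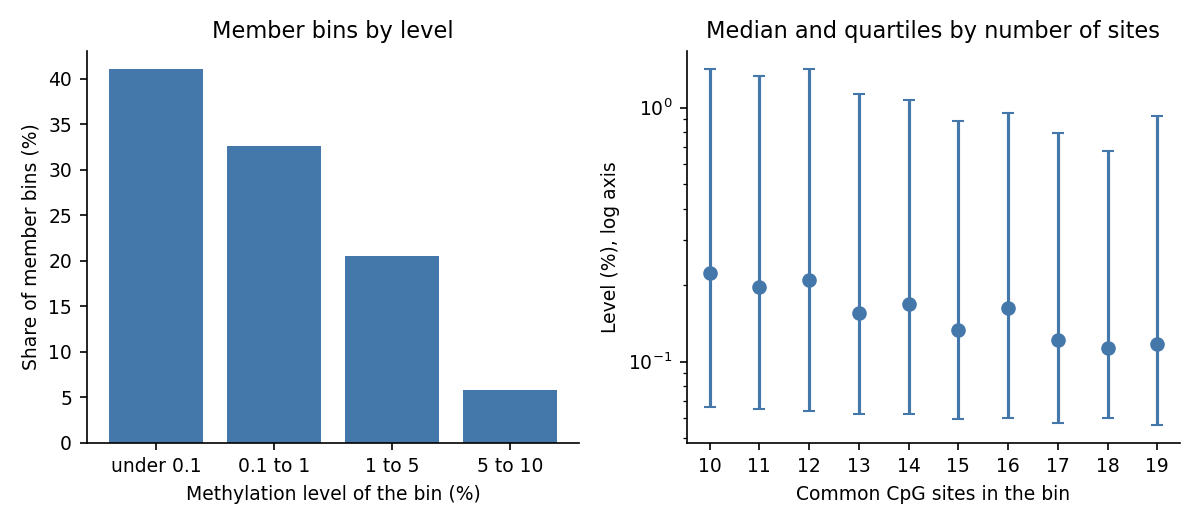
Left, share of the 8326 members (y axis, %) in 4 classes of methylation level (x axis, %). Right, median level with quartiles (y axis, %, log axis) by the number of common CpGs in the bin (x axis). The lowest class holds 41.0% of members, and the medians are 0.224% at 10 CpGs and 0.117% at 19.

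The surroundings of the members were mostly low or unmeasured. Of the windows directly beside them, 42.9% were themselves under 10%, 2.50% were at 10 to 50%, 0.558% were at 50% or more, and 54.1% had fewer than 3 common CpGs. In the 91 members with a methylated window on exactly 1 side, the level fell with distance from that side. It was 8.67% ± 0.875 (SD over 12 rats) in the first 100 bp, 4.31% ± 0.393 in the next 100 bp, and 0.968% ± 0.143 in the last 100 bp. In the 15 rats of the first table the corresponding first and last values were 11.8% ± 2.14 and 1.21% ± 0.244. The decline was not even there, since the second 100 bp stood at 1.54% and the third at 3.01%, and the nearest class rested on 20 CpGs.

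A placed gene start lay in 975 members (11.7%), which held the starts of 1027 genes. The share was 27.3% of the dense bins, 11.7% of the broad-domain bins and 0.851% of bins with 10 or more CpGs and a level of 10% or more. These shares depend on how many CpGs a promoter has, because placing needs at least 12, and so no test was made between the sets. A further 585 members lay within 1000 bp upstream and 780 within 1000 bp downstream of a placed start. Members with a placed start had lower levels than those without one. The set without one also holds any member whose start could not be placed, and the members near a placed start. The contrast is thus not one of having a gene start or not. In the first table, which did not choose them, the 706 members with a start averaged 0.705% ± 0.0942 (SD, n = 15) and the 5058 without 1.19% ± 0.110, and the first value was the lower in all 15 rats. In the second table the values were 0.453 and 1.12%, again in that order in all 12 rats. The division was made after the data had been seen and was not tested.

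Around the starts inside members, site levels formed a trough about 800 bp wide. The bins that hold these starts were chosen for their low level in the second table, so a dip near the start is built in there by the rule. The first table did not choose the bins, but its profile is taken around the same chosen bins. The width and depth of the trough therefore say nothing about gene starts in general, and they were not tested. In the second table the mean was 0.422% ± 0.0300 (SD, n = 12) in the 100 bp before the start and 0.475% ± 0.0323 in the 100 bp after it. It stayed under 1% from 400 bp before to 399 bp after the start. Beyond that it rose on both sides, to 5.65% ± 0.261 in the class from -1000 to -901 bp and 8.65% ± 0.377 at 900 to 999 bp downstream. The 15 rats of the first table had 0.469% ± 0.115 before the start, near the second table, and a higher 0.721% ± 0.0794 after it. At the ends of the profile their levels were lower, 1.33% ± 0.482 upstream and 3.87% ± 0.440 downstream, over 85 and 131 CpGs against 239 and 283 in the second table. Depth and site content differ between the tables, and their part in this gap was not tested.

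**Figure D3:**
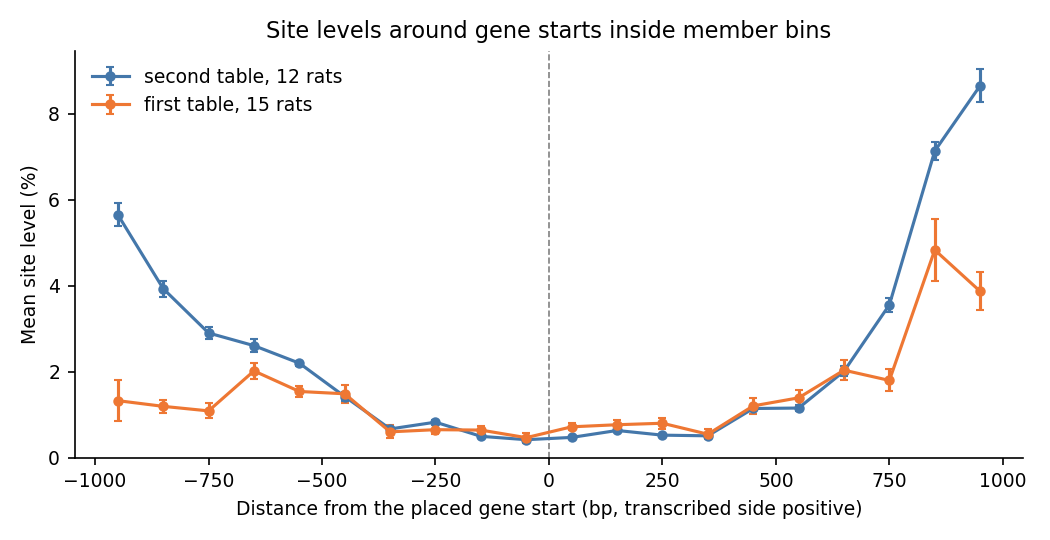
Mean site level (y axis, %) by distance from gene starts placed inside members (x axis, bp in classes of 100 bp, transcribed side positive). Points are means over the rats of each table and bars are SD. Both tables stay near or under 1% within 400 bp of the start, and the second table reaches 8.65% at the downstream end.

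The promoters placed in members were described by their composition and motifs. The rule itself fixes a lower CpG number in members than in dense bins. Median CpG number was 24 per 300 bases in the 1105 promoters placed in members, 30 in dense bins and 32 in broad domains, and mean GC content was 64.2, 68.0 and 70.5%. Short motifs were searched on both strands. The TATA box TATAAA stood in 3.80% of the member promoters, 3.26% of those in dense bins, 6.57% of those in broad domains and 14.2% of all 33469 promoters. The GC box GGGCGG stood in 75.2% of member promoters, 80.1 and 79.8% of those in dense bins and broad domains, and 33.1% of all. The CCAAT box stood in 34.9% of member promoters and 37.5% of all. The ETS motif CCGGAAG, which contains an MspI site and a CpG, stood in 25.2% of member promoters and 22.4% of promoters in dense bins. It stood in 8.92% of those in broad domains (19 of 213), 22.8% of all placed promoters and 8.75% of all promoters. The motifs named NRF1, CRE and YY1 stood in 1.45, 3.53 and 2.44% of member promoters. Their shares were 2.39, 3.96 and 2.53% in dense bins and 2.82% each in broad domains. Against all promoters these shares partly repeat the choice of CpG-rich sequences, and a match is only a match of letters.

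Of the gene lists drawn up for this tissue, few genes could be placed and 3 had their start in a member. Of 21 blood pressure and oxidative stress genes 4 were placed, 2 of them, Edn1 and Nox4, in members. Of 12 housekeeping genes 5 were placed, 1 of them, Rpl13a, in a member. None of the 2 placed thick ascending limb and collecting duct genes (of 23), the 7 placed DNA methylation enzymes and readers (of 15) or the 3 placed kidney development factors (of 16) started in a member. Wnk4, Sgk1, Mbd1, Wt1 and Irx1 started in dense bins, and Pax2 in a broad domain. Members also lay within 1000 bp of the starts of Ace, the angiotensin-converting enzyme (3.19% ± 0.653, SD, n = 12), of Tbp, the TATA-binding protein (0.0913% ± 0.0681), and of B2m, the light chain of class I MHC (0.104% ± 0.0523).

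The Nox4 start bin had a mean of 3.61% ± 1.09 among PRE_LS rats, 3.12% ± 1.20 among HS_SCR rats and 4.01% ± 0.690 among HS_DT rats (SD, n = 4 each). Its 4 PRE_LS rats had 5.04, 3.86, 2.91 and 2.63%, its 4 HS_SCR rats 2.92, 1.77, 4.70 and 3.11%, and its 4 HS_DT rats 3.52, 3.36, 4.37 and 4.81%. The 3 groups overlapped. The Edn1 start bin averaged 0.400% ± 0.613 over PRE_LS, 0.277% ± 0.0406 over HS_SCR and 0.0851% ± 0.0757 over HS_DT. A single PRE_LS rat at 1.32% set the mean of its group, the other 3 being at 0.0348 to 0.140%. Between the high-salt groups the Edn1 values did not overlap, 0.244 to 0.334% in HS_SCR and 0 to 0.169% in HS_DT, on 1671 to 3175 reads a rat, and this bin was not called in the test over all bins. The Rpl13a start bin had no methylated read in 9 of the 12 rats and at most 0.392%.

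A further 33 genes with starts in members were picked by hand and grouped by known function after the data had been seen. They are examples, and their levels do not stand for all genes of such functions. The 6 bins at genes of metabolism and redox were at 0.0484 to 0.144%, with Gpx4, the lipid peroxide reducing enzyme, at 0.0484% and Me1, malic enzyme, at 0.144%. The 6 at ribosome, chaperone and proteasome genes were at 0 to 0.0846%, and the bin of Rpl14 had no methylated read in the 12 rats. The 6 at chromatin and DNA repair genes, among them Kdm5a and Hdac3, were at 0.0192 to 0.0874%. Genes of like function outside these picks had far higher levels. The start bins of Isg20l2 and Pwp2, both of ribosome biogenesis, were at 9.87 and 3.53%, that of the glutathione transferase gene Gstm4 was at 2.57%, and that of the fatty acid desaturase gene Fads2 was at 1.64%.

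The 5 bins at kidney transport and signalling genes ranged from 0.174% at Gatm, a creatine synthesis enzyme, to 1.81% at Rhcg, with 1.21% at Slc5a8, a sodium-coupled monocarboxylate transporter. The 10 bins at developmental transcription factors ranged from 0.375% at Sox21 to 6.55% at Nkx2-5, and 7 of them were above 1%. Other developmental regulators were lower than any of these picks, with 0.178% at Rarb and 0.228% at Gli2. Hoxd11, a Hox gene with a role in kidney patterning, stood at 2.44% (1.17 to 3.95% over the 12 rats), En1 at 2.40% and Sim1 at 3.46%. In the first table, which did not choose the members, En1 was at 1.99%, Hoxd11 at 1.74% and Sim1 at 3.19%, while Rpl14 was at 0.579%, Gstp1 at 0.612% and Kmt2c at 0.591%. Neurog1 was at 1.81% and Six4 at 1.01% there, but Sox21, at 0.419%, was below Rpl14, Gstp1 and Kmt2c. Dlx1, Nkx2-5, Foxd3 and Fezf2 had no value in the first table. There Gatm (0.272%), Npr1 (0.302%) and Slc47a2 (0.435%) were below Hk2 (0.597%), Gstp1, Kmt2c and Rpl14, so the order of the kidney genes and the widely used genes in the second table did not hold in the first.

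**Figure D4:**
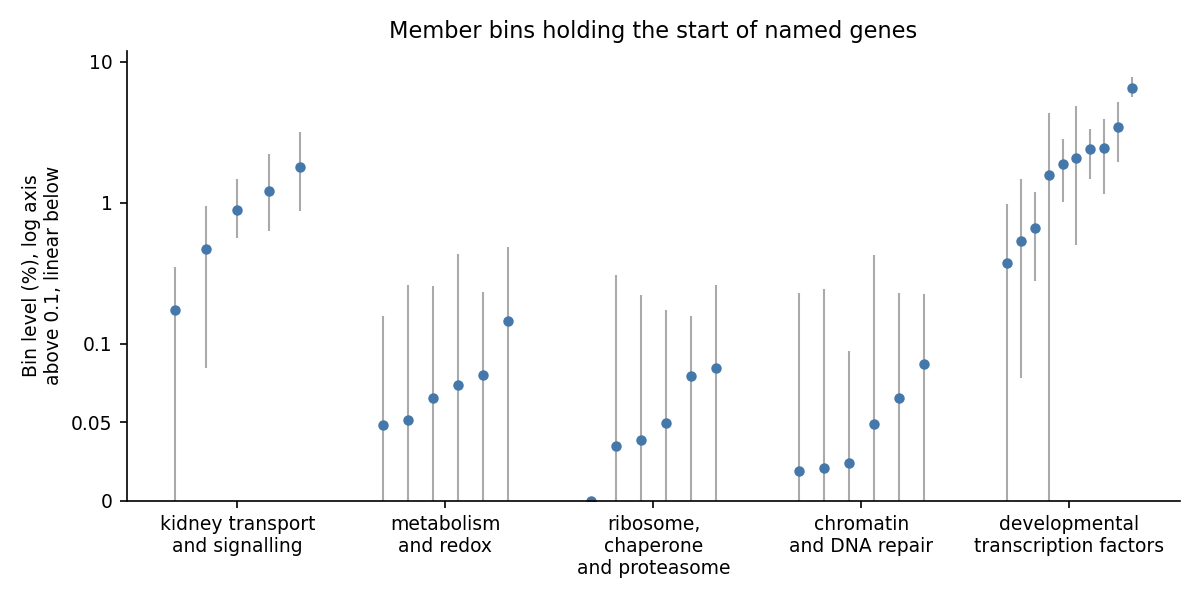
Level of the member bin holding the start of each of 33 genes (y axis, %, log axis above 0.1 and linear below), by functional group (x axis). Points are means over the 12 rats of the second table, and lines run from the lowest to the highest rat. The hand-picked bins of the 3 middle groups lie at or under 0.144%, and the picked developmental transcription factors reach 6.55%.

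Measured in the rats that had not chosen them, the members stayed low. In the first table the 5764 members averaged 1.13% ± 0.107 (SD, n = 15) and 67 of them (1.16%) reached 10% or more, the highest being 25.1%. At the 52224 CpGs common to both tables the mean was 0.862% ± 0.0262 (SD, n = 12) in the second table and 1.03% ± 0.105 (SD, n = 15) in the first. Over the 5653 members with at least 3 such CpGs the medians were 0.139 and 0.401%. Of these bins, 4197 were under 1% in both tables and 1175 at 1% or more in both. Their order was alike (Pearson 0.949, Spearman 0.764, across bins of the same CpGs, as a description).

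Against the other low-methylated sets, the direction of the difference depended on how bins were averaged. In the first table the mean was higher in members than in broad-domain bins (1.13 against 0.983%, difference 0.151 points, SE 0.00891) in 15 of 15 rats, and the exact two-sided sign-flip permutation p was 6.104e-05, the smallest possible with 15 rats. The median over bins was the lower in members, by a difference of -0.169 points in 15 of 15 rats, with the same p, and so was the mean of bins under 5% in both sets, with a difference of -0.0538 points. Against dense bins (0.726%) the mean was higher by 0.407 points (SE 0.00878, 15 of 15 rats, exact permutation p = 6.104e-05). Here the median differed by -0.0389 points (lower in 10 of 15 rats, exact permutation p = 0.0891) and the mean weighted by reads by -0.941 points (lower in 15 of 15). The member median was 0% in MCW_LS replicates 1 and 3, MCW_HS replicates 1 and 4, and CRL_HS replicates 1 and 2. In those rats the typical member had no methylated read, so both median contrasts are limited by the counting floor. The permutation p-values here measure how steadily a contrast of the same bins recurred over rats. They do not measure the spread between bins of a set.

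The mean level of the members in a rat was compared between groups as the simplest measure of a shared shift. It was 1.12% ± 0.117 (SD, n = 3) in MCW_LS, 1.19% ± 0.168 in MCW_HS, 1.12% ± 0.0725 in CRL_LS and 1.10% ± 0.0712 in CRL_HS. In the GapmeR experiment PRE_LS stood at 1.04% ± 0.0128, HS_SCR at 1.07% ± 0.0529 and HS_DT at 1.03% ± 0.0185 (n = 4 each). The 3 MCW_LS rats had 1.02, 1.25 and 1.10%, and the 4 MCW_HS rats 1.01, 1.17, 1.41 and 1.17%, so that these groups overlapped. Every other pair of groups overlapped as well.

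The 8 comparisons of this mean gave differences within 0.1 points. High against low salt differed by 0.0628 points (SE 0.108) in MCW rats and by -0.0161 points (SE 0.0508) in CRL rats, and the difference of these 2 salt effects was 0.0789 points (SE 0.119). HS_SCR differed from PRE_LS by 0.0290 points (SE 0.0272), HS_DT from HS_SCR by -0.0402 points (SE 0.0280) and HS_DT from PRE_LS by -0.0112 points (SE 0.0112). MCW_LS differed from CRL_LS by 0.00644 points (SE 0.0767) and MCW_HS from CRL_HS by 0.0853 points (SE 0.0914). The exact permutation p-values, adjusted over the 8 comparisons, were 0.838 to 0.914, where 0.0286 is the smallest unadjusted p that 4 rats against 3 or 4 can give. Adjusted over 8 comparisons, that p would be 0.229 for a comparison reaching it alone, so apart from the difference of salt effects no comparison could pass by itself. Weighted by reads, HS_SCR differed from PRE_LS by 0.0675 points and HS_DT from HS_SCR by -0.0570 points, each with an exact permutation p of 0.0571 (0.229 adjusted over the 8 comparisons). The 3 comparisons of the second table share their groups, as do the salt and colony comparisons of the first.

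The member level was set against library depth, and no relation passed after adjustment. Over the 15 rats of the first table the mean member level and the log10 of CpG reads had a Pearson r of 0.541 (permutation p = 0.0371, 0.0743 after adjustment for 2 relations) and a Spearman rho of 0.421 (permutation p = 0.118, adjusted 0.237). Without the 2 libraries farthest from the median depth r was 0.0813 (permutation p = 0.787), so the raw value rests on those libraries. They were MCW_LS replicate 2 (95102303 reads, mean level 1.25%) and MCW_HS replicate 3 (81341305 reads, 1.41%). These 2 rats had both the most reads and the highest mean levels of the first table. In the 12 rats of the second table r was -0.121 and rho 0.0280 (permutation p = 0.652 and 0.940, adjusted the same), and without the 2 farthest libraries r was -0.297 (permutation p = 0.375). With 3 or 4 rats a group, no value within groups was computed. The first table held 35040331 to 95102303 CpG reads a rat and the second 174400859 to 257658964, and a member bin had a median of 316 and of 1558.5 reads.

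**Figure D5:**
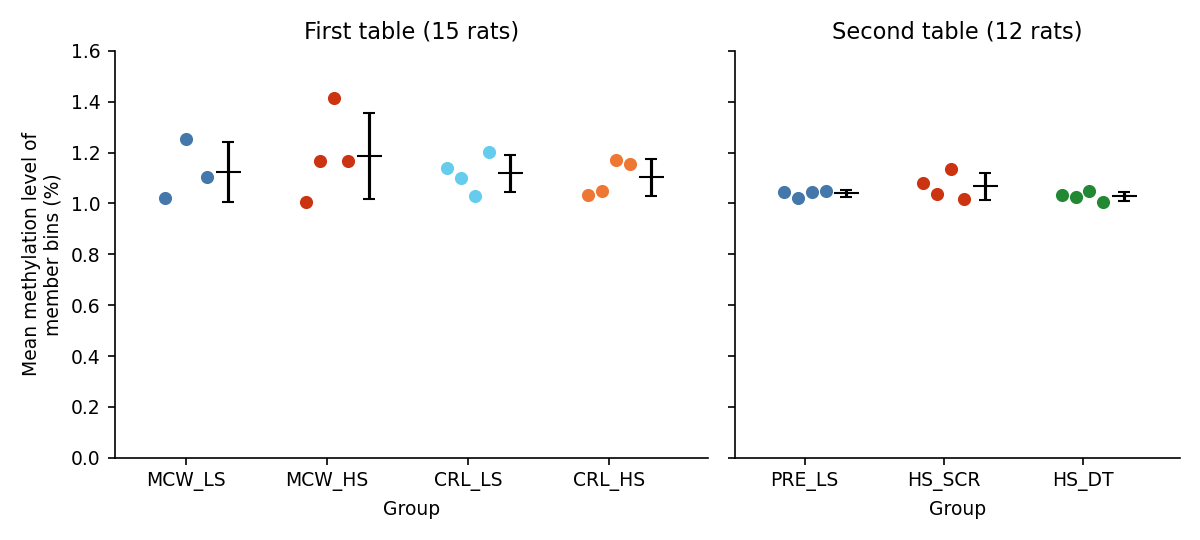
Mean methylation level of the members in each rat (y axis, %) by group (x axis), for 5764 members (first table) or 8326 (second table). Points are rats, and the horizontal mark and bars beside them are the group mean and SD. All 27 rats lie between 1.00 and 1.41%, and the groups overlap.

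No single member was called in any of the 8 comparisons. The quasi-binomial test was fitted to all bins that passed a floor of 20 methylated and 20 unmethylated reads over the compared rats, and at an adjusted p below 0.05 it called 0 bins in all (0.0%) and 0 members in each comparison. Members that passed the floor numbered 1999 for salt in MCW, 1659 for salt in CRL, 1717 and 1901 for the colonies on low and on high salt, 3228 for the difference of salt effects, and 4296, 4263 and 4244 for HS_SCR against PRE_LS, HS_DT against HS_SCR and HS_DT against PRE_LS. Of the other members, those with fewer than 3 common CpGs in the first table were not measured there, and the remainder had too few methylated reads for the floor. A member could pass through 1 group alone. Limma on log ratios of the counts also called 0 bins and 0 members in every comparison.

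At an unadjusted p below 0.05 the quasi-binomial test marked 165 of the 1999 members for salt in MCW (8.25%, against 6.32% of all bins) and 157 of 1659 for salt in CRL (9.46% against 6.35%). For the colonies it marked 152 (8.85% against 6.09%) on low salt and 201 (10.6% against 6.35%) on high salt, and for the difference of salt effects 245 (7.59% against 5.89%). In the second table it marked 330 (7.68% against 4.99%), 301 (7.06% against 4.69%) and 283 (6.67% against 5.41%). Limma marked 88, 94, 76, 118, 147, 227, 210 and 199 members in the same order, which is 4.40, 5.67, 4.43, 6.21, 4.55, 5.28, 4.93 and 4.69% of the members tested. Its shares of all bins were 5.15, 5.90, 5.02, 5.68, 4.77, 4.80, 4.64 and 5.43%. The share of members was thus the lower in 5 of the 8 comparisons by limma and the higher in all 8 by the quasi-binomial test. On simulated counts the quasi-binomial test also passed unchanged bins of low level somewhat too often at this threshold, so the higher shares are not read as a property of the members. Groups did not overlap in 107 members for salt in MCW (5.35%, against 5.7% of all bins), in 51 for salt in CRL (3.07% against 3.11%), and in 136 members for HS_SCR against PRE_LS (3.17% against 2.7%) and 136 for HS_DT against HS_SCR (3.19% against 2.63%). Among the other comparisons with a plain pair of groups, 76 members did not overlap for the colonies on low salt (4.43% against 5.44%), 66 on high salt (3.47% against 3.22%) and 119 for HS_DT against PRE_LS (2.80% against 3.04%). These shares are near those of all bins.

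Most single members that could be tested differed between groups by less than 1 point. In the second table the median absolute difference was 0.229 points for HS_SCR against PRE_LS, 0.231 for HS_DT against HS_SCR and 0.218 for HS_DT against PRE_LS, with 95th percentiles of 1.53, 1.48 and 1.35 points. In the first table, at lower depth, the medians were 0.531 to 0.610 and the 95th percentiles 3.37 to 3.62 points. For HS_SCR against PRE_LS 2373 members were higher and 1923 lower (median 0.0332 points, against -0.00404 over all bins tested). For HS_DT against HS_SCR 1896 were higher and 2367 lower (median -0.0355 points, against 0.00359). For HS_DT against PRE_LS 2184 were higher and 2060 lower (0.00852 against 0.00104). HS_SCR is in the first 2 of these comparisons, so their opposite signs are not separate observations. Counts in the first table were 1145 higher and 854 lower for salt in MCW (median 0.137 points, against 0.109 over all bins), 844 and 815 for salt in CRL (0.0161 against 0.113), 896 and 821 for MCW_LS against CRL_LS (0.0371 against 0.0185), 1143 and 758 for MCW_HS against CRL_HS (0.170 against 0.0420) and 1724 and 1504 for the difference of salt effects (0.0581 against 0.0148). Which members passed the floor depends on their methylated reads, and these counts have no test.

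The members with the smallest unadjusted p in each direction are named with their values, and none was called. For salt in MCW, chr7:1611001-1611500 had 33.4, 35.3, 28.9 and 33.3% in MCW_HS against 23.4, 11.2 and 19.4% in MCW_LS (difference 14.7 points, SE 3.82, quasi-binomial test adjusted p = 0.707). The groups did not overlap. This bin, which ranks second among the members by its highest single CpG, was at 8.05 to 9.05% on average in the groups of the second table. Its levels in the 2 tables thus differ widely. Each table keeps its own common CpGs, so the levels may rest on different sites, and their part in the gap was not tested. In chr1:211158001-211158500 the MCW_HS rats had 0.949, 1.21, 0.843 and 1.23% and the MCW_LS rats 2.79, 2.77 and 2.28% (difference -1.55 points, SE 0.192, adjusted p = 0.719, quasi-binomial test).

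For salt in CRL, chr18:71971501-71972000 had 2.12, 3.02, 1.85 and 2.30% in CRL_HS and 0.613, 0.357, 0.425 and 0% in CRL_LS (difference 1.97 points, SE 0.282, quasi-binomial adjusted p = 0.611). The bin holding the start of Cadm2, a neural cell adhesion molecule, at chr11:17052001-17052500 had the opposite sign. It had no methylated read in the 4 CRL_HS rats and 3.74, 4.30, 0.341 and 1.85% in CRL_LS (quasi-binomial adjusted p = 0.611). The Cadm2 bin thus passed the floor on reads through CRL_LS alone, the group in which it was high, so its contrast is given as a description only. In the MCW rats its means were 0.979% on high and 1.39% on low salt, with 162 to 582 reads a rat. For the difference of salt effects, chr8:129318001-129318500 had no methylated read in any CRL_HS rat and 2.35 to 3.12% in CRL_LS, whereas MCW_HS had 1.20 to 4.35% and MCW_LS 0 to 2.44% (quasi-binomial adjusted p = 0.695). It rests on 60 to 269 reads a rat. In chr14:79040501-79041000 the signs were opposite, with a difference of salt effects of -2.59 points (SE 0.919, the same adjusted p) on 63 to 405 reads.

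Between MCW_LS and CRL_LS, which differ in colony, diet and salt, chr12:11718501-11719000 was at 4.23, 4.29 and 4.27% in MCW_LS and 2.10, 1.41, 1.59 and 0.697% in CRL_LS (quasi-binomial adjusted p = 0.543). The bin chr10:15381001-15381500 was at 0.806, 0.634 and 0.567% in MCW_LS and 3.46, 3.38, 2.02 and 3.47% in CRL_LS (adjusted p = 0.540, same test). Both separated the groups without overlap. On high salt, chr5:148088001-148088500 was at 4.59, 3.18, 6.13 and 5.80% in MCW_HS against 1.57, 1.04, 0 and 0.625% in CRL_HS, and chr13:56962001-56962500 at 3.01, 2.45, 1.33 and 3.68% against 11.9, 7.49, 12.7 and 3.98% (quasi-binomial adjusted p = 0.662 for both).

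In the GapmeR experiment, chr5:26740501-26741000 was named in 2 comparisons that share HS_SCR. It was at 1.15, 0.626, 0.691 and 0.476% in PRE_LS, at 2.54, 1.98, 3.88 and 3.65% in HS_SCR and at 1.20% ± 0.459 in HS_DT (quasi-binomial adjusted p = 0.996 for HS_SCR against PRE_LS and 1.00 for HS_DT against HS_SCR). In the other direction, chr7:120116501-120117000 lay between 0.367 and 0.846% in PRE_LS and between 0 and 0.0855% in HS_SCR (quasi-binomial adjusted p = 0.996). It passed the floor on reads mainly through PRE_LS, where it was high. For HS_DT against HS_SCR, chr17:26598501-26599000 was at 5.57, 6.25, 5.88 and 4.94% against 3.75, 2.70, 2.86 and 2.44%, and chr14:82413001-82413500 at 1.94, 1.16, 2.71 and 2.35% against 4.17, 3.21, 4.18 and 4.67%. Neither pair of groups overlapped, and the quasi-binomial adjusted p was 1.00 for both.

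For HS_DT against PRE_LS the member of smallest p was chr10:71998501-71999000, a bin of 11 CpGs with 630 to 1232 reads a rat. It was at 12.2, 11, 13.2 and 14.4% in HS_DT and at 3.65, 6.27, 5.11 and 5.68% in PRE_LS, a difference of 7.52 points (SE 0.908, unadjusted p = 7e-06, adjusted p = 0.402, quasi-binomial test over 113107 bins). HS_SCR stood between them at 7.82% ± 3.40. The bin was not measured in the first table. In the other direction, chr5:126924501-126925000 was at 2.59, 1.55, 2.90 and 1.66% in HS_DT and 5.35, 5.80, 4.58 and 4.39% in PRE_LS (quasi-binomial adjusted p = 0.631), with 3.71% ± 2.25 in HS_SCR.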

How the data were processed

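RRBS counts were taken from the 2 deposited tables, which per the file headers give, for each rat and CpG position, the counts of C (methylated) and T (unmethylated) reads. The submitters' processing notes name the trimmer Trim Galore 0.2.5 and the genome build rn5. For the aligner, the methylation caller and PCR duplicates, details were not given in the sources used here, and intervals and limits cover counting error only.

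Autosomal CpGs read 10 times or more in each library of a table were kept, and counts were summed in 500 bp bins. The level of a rat is methylated reads as a percentage of all reads in the bin, and SE is the standard error of a difference of group means. Bins with 3 or more CpGs and at least 20 methylated and 20 unmethylated reads over the compared rats were fitted by quasi-binomial logistic regression (squeezeVar of limma 3.58.1, dispersion at least 1, two-sided F test, Benjamini-Hochberg over all bins tested). Means over members were compared by exact two-sided permutation over rats. The tables were tested separately. The test was checked on simulated data, where it recovered few of the 2-fold changes, and where unchanged bins of low level passed an unadjusted p below 0.05 somewhat too often, so a call of 0 does not exclude changes of that size. In 854 members at least 1 CpG had the same counts as a CpG in another bin, and in 444 all did, so near-identical copies may share reads. For MCW_LS the label letters RP stand on different replicates in the title and in the column name, and the column name was followed.

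The members, lists and comparisons were chosen with earlier results of these data known. The bins named for each comparison are the 2 members of smallest unadjusted p in each direction, of which the first in each direction is printed. Others named are the 3 of largest SD, the 3 on each side of the limit, the 3 of most reads at the lowest level, the 3 with the highest single CpG, and members within 1000 bp of a start of the lists. Assigning genes by CpG spacing was added after the data had been seen, since no rn5 annotation was used here. Its minimum of 12 matching CpGs was set after looking at the share of matches on the same-named chromosome. The 33 further genes, the 6 printed promoters, the 100 bp classes beside methylated windows and the relation to depth were also chosen after the data had been seen. Alternatives were weighting by reads, the median, 20 reads per CpG, members under 5%, isolated members, leaving out CpGs of equal counts, limma on log ratios (0.5 added to each count), no floor on reads, a pooled level of 5 to 95% in place of the floor, blocking on animal number range, a replicate block and leaving out each rat. The block on animal number range was run for HS_DT against HS_SCR only. Python 3.11.15, numpy 2.4.6, scipy 1.17.1, R 4.3.3 and matplotlib 3.10.9 were used.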

Additional observations from a re-analysis of the deposited data

Results flagged for a closer look

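Within groups of 4 rats, the gap of the highest or lowest rat to its nearest other was divided by the range. A rat was flagged where this exceeded the 95% critical value of Dixon's test. Of 60 groups gone through, 7 had such a rat. The 60 include MCW_LS groups, with 3 rats, and any group of equal values, in which the test was not run. Chance marks about 1 in 20 groups, and bins in which most rats have no methylated read are marked by a few reads in 1 rat. In the mean level of the members, PRE_LS replicate 2 was at 1.02%, with the other 3 rats of its group at 1.04 to 1.05%. In the Edn1 start bin, MCW_HS replicate 3 was at 1.52% and CRL_HS replicate 3 at 0.186%, each with the other 3 rats at 0, and PRE_LS replicate 1 was at 1.32%, with the others at 0.0348 to 0.140%. In the Rpl13a start bin HS_DT replicate 3 was at 0.221% with the others at 0. In chr10:15381001-15381500 CRL_LS replicate 3 was at 2.02%, below the other 3 at 3.38 to 3.47%. In chr14:79040501-79041000 MCW_HS replicate 3 was at 0.308% with the others at 0.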

How the results depend on the processing

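Depth limits the single-bin tests: between pairs of groups of the first table, most measured members had under 20 methylated reads over the compared rats. For the difference of salt effects, 3228 of the 5764 measured members passed the floor. Over the 8 comparisons, 0 members were called under every alternative run. Over all bins, 157 were called for MCW_LS against CRL_LS without MCW_LS replicate 3, and 0 otherwise. The mean member level had no adjusted p below 0.05 in any comparison under the alternatives run, most of which could not reach it with these numbers of rats, so this says nothing about stability. Its difference changed sign for MCW_HS against MCW_LS with the median (-0.0139 points), for CRL_HS against CRL_LS with isolated members (0.0110), for MCW_LS against CRL_LS weighted by reads (-0.0336), with the median (-0.0549) and at 20 reads per CpG (-0.00311), and for HS_DT against PRE_LS weighted by reads (0.0105) and with the median (0.00342). Members against broad domains reversed with the median (-0.169) and under 5% (-0.0538), and members against dense bins with the median (-0.0389) and weighted by reads (-0.941). The causes were not tested. Leaving out each rat gave -0.0124 to 0.126 for MCW_HS against MCW_LS (negative without MCW_HS replicate 3), -0.0454 to 0.0121 for CRL_HS against CRL_LS (positive without CRL_LS replicate 4, CRL_HS replicate 1 or CRL_HS replicate 2), -0.0569 to 0.0586 for MCW_LS against CRL_LS (negative without MCW_LS replicate 2 or CRL_LS replicate 3), 0.0101 to 0.146 for MCW_HS against CRL_HS, 0.00367 to 0.142 for the difference of salt effects, 0.00621 to 0.0460 for HS_SCR against PRE_LS, -0.0572 to -0.0174 for HS_DT against HS_SCR and -0.0184 to -0.00362 for HS_DT against PRE_LS. Same-numbered rats had correlations of -0.081 to 0.0862 between their deviations in the members tested. The part of counting noise in these deviations was not tested, so whether the numbers pair the rats cannot be decided from them. With the replicate block the mean difference was 0.0700 for MCW_HS against MCW_LS, -0.0161 for CRL_HS against CRL_LS, 0.0347 for MCW_LS against CRL_LS, 0.0853 for MCW_HS against CRL_HS, 0.0290 for HS_SCR against PRE_LS, -0.0402 for HS_DT against HS_SCR (exact permutation p = 0.125, the smallest 4 pairs allow) and -0.0112 for HS_DT against PRE_LS, and 0 bins were called.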
